A study of Mus musculus with 46 samples.

Results

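Trem2, Tyrobp, Mertk, Gas6, Pros1, Msr1 and Cd33 form a group of 7 genes that microglia use to sense and engulf lipids, debris and dying cells. They were chosen by name, from a list of phagocytic receptors with their adaptor and ligands, and not by a measured value. The count table held 20999 genes, of which 12230 passed the filter on low counts and were tested. All 7 genes were among them, so no member was lost to the filter. Each is a protein-coding gene, and none overlapped another gene of the table.

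RNA was sequenced from microglia of male C57BL/6 mice in 5 groups of 2 libraries. The adult group was wild type and 90 days old. The Ki67-negative and Ki67-positive groups of postnatal day 8 (PND8) came from Ki67-rfp reporter mice, in which cells with the cell cycle protein Ki67 fluoresce. The repopulation groups, Ki67-negative and Ki67-positive, came from 75-day-old Ki67-rfp mice that were given PLX5622 from day 55 for 17 days and were left to recover for 3 days. PLX5622 is a drug that inhibits the receptor CSF1R and so depletes microglia. H3K27ac, the acetylation of histone H3 found at promoters and enhancers in use, was profiled in 6 groups of 2 libraries from wild-type mice, in fixed cells that were stained with an antibody to Ki67. These were adult cells (60 and 65 days), PND8 Ki67-negative and Ki67-positive cells, Ki67-negative and Ki67-positive cells of 90-day-old mice after 4 weeks of cuprizone, and Ki67-positive repopulating cells of 90-day-old mice given PLX5622 from day 70 for 17 days with 3 days of recovery. These ages and treatments are those of the labels; the adult H3K27ac and Rpb2 lists have Vehicle in their headers although their treatment label is None, and the header of repopulation replicate 1 names a younger age than its label. Cuprizone is a toxin that strips myelin, and RNA of that setting was not analysed here. The labels mark the adult cells as Ki67-negative, so the adult group had no cycling counterpart, and the adult RNA libraries differed from the others in genotype as well as age.

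TREM2 is a surface receptor for lipids, lipoproteins and the debris of cells and myelin. It has no signalling tail of its own and acts through the adaptor DAP12, encoded by Tyrobp, which recruits the kinase SYK. MERTK is a receptor tyrosine kinase that does not touch the dying cell directly: the secreted bridging proteins GAS6 and protein S, the product of Pros1, bind phosphatidylserine on that cell and MERTK on the phagocyte. MSR1 is a scavenger receptor for modified lipoproteins and other polyanions, and CD33 is a sialic acid-binding receptor, a Siglec.

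RNA libraries held between 6865903 and 10287876 counts, so a count of 3 corresponded to between 0.275 and 0.457 counts-per-million (CPM). The deposited counts keep at most 3 tags per position, which can hold down short and abundant transcripts. Tyrobp had between 2.12 and 2.96 tags per base of exon, Trem2 between 1.54 and 2.67, Cd33 between 1.49 and 2.23 and Gas6 between 0.44 and 2.35, whereas only 109 genes (0.519% of the table) had over 2 in any library. The part of that limit in the results below was not tested. The summed level of 9 microglial markers lay between 6979 and 9269 CPM in all 10 libraries. That of 8 markers of border macrophages (the macrophages of meninges and vessels) was 65.3 to 81.3 CPM in adult, 610 to 861 CPM at PND8 and 26.7 to 43.0 CPM in repopulation, and most of it was Mrc1. Markers of monocytes and neutrophils summed to 69.4 to 228 CPM in adult and to 7.52 to 18.5 CPM elsewhere, so the 2 adult libraries differed in them as well. The 7 astrocyte markers summed to 240 to 248 CPM in adult, 61.1 to 430 CPM at PND8 and 410 to 567 CPM in repopulation, with Gfap and Gja1 under the level of 3 counts in adult. Among the H3K27ac libraries, adult replicate 1 stood apart, with 32.6% of its tags in 19572 regions against 45.5 to 69.7% in 24082 to 30539 regions in the other 11.

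The start sites of 3 members bear on the results that follow, those of Trem2, Mertk and Gas6. The authors' adult ATAC-seq peaks (open chromatin) lie over or just before them, and their H3K27ac is described below. Each sequence runs 5′ to 3′ on the gene's strand, from 250 bases before the start to 30 bases from it, and comes from RefSeq (GRCm38.p6). Capitals mark the bases inside an ATAC-seq peak of the adult library, 37 in Trem2, 113 in Mertk and 113 in Gas6.
Trem2, chr17:48346151-48346430, plus strand: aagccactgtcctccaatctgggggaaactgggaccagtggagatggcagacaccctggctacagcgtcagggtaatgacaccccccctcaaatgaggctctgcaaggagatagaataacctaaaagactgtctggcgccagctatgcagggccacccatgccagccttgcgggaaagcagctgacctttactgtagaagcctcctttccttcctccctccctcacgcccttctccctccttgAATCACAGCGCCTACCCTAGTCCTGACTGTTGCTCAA
Mertk, chr2:128698665-128698944, plus strand: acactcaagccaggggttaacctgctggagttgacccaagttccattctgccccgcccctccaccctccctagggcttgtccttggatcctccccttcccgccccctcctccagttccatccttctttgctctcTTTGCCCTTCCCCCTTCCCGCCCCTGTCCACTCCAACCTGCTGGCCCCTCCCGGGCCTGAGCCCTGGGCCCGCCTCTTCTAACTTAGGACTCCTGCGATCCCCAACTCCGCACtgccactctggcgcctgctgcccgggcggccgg
Gas6, chr8:13494506-13494785, minus strand: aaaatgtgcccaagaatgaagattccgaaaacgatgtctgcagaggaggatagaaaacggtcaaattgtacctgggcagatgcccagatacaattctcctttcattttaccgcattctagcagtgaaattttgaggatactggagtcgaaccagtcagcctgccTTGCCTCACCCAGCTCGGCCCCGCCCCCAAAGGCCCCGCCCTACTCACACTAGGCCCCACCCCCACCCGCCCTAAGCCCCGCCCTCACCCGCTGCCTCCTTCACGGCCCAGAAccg
In Trem2 the accessible stretch began 7 bases before the start, whereas in Mertk all of it and in Gas6 most of it lay before the start. GC content of the printed stretch was 65.7% in Mertk, 56.4% in Gas6 and 56.1% in Trem2. RefSeq windows were at hand for 5 of the 7 members, these 3 with Pros1 and Cd33; Tyrobp and Msr1 are named only. On both strands of those 300-base windows, 5 short motifs were searched: GAGGAAGT for PU.1, TGAGTCA for AP-1, CACGTG for an E-box, TGCTGAC for a MAF half-site and GAAANNGAA for IRF factors. None of the 5 windows held any of them. Among all 32851 windows in the table, 3.2% held the PU.1 motif, 5.2% the AP-1 motif, 7.15% the E-box, 4.67% the MAF half-site and 8.56% the IRF motif. No match says only that these letters are not in these windows.

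Levels of different genes were compared as transcripts-per-million (TPM), which are scaled by transcript length. The TPM of Trem2 rest on a transcript of 1084 bases, and its counts on another of 1139 bases. In adult microglia Trem2 stood first of the 7, at 406 ± 4.52 TPM (mean ± SD, n = 2 throughout), followed by Tyrobp at 382 ± 8.91, Cd33 at 312 ± 12 and Mertk at 298 ± 0.866. The ligands were lower, with Pros1 at 179 ± 0.861 and Gas6 at 152 ± 3.20 TPM, and Msr1 was far below all others at 1.21 ± 1.00. None of these neighbours in the adult order overlapped.
The order differed in the other groups. In both PND8 groups the first were Tyrobp, Trem2 and then Gas6, at 332 ± 12.2 TPM in Ki67-negative and 342 ± 0.739 TPM in Ki67-positive cells, above both Cd33 and Mertk. In both repopulation groups the first were Tyrobp, Cd33 and then Trem2, while Gas6 stood above Msr1 alone, at 114 ± 4.28 TPM in Ki67-negative and 85.4 ± 5.19 TPM in Ki67-positive cells. Neighbours whose libraries overlapped were Mertk and Pros1 in PND8 Ki67-negative cells, and Cd33 and Trem2, and Mertk and Pros1, in Ki67-negative repopulating cells. In CPM, the highest of the 10 libraries exceeded the lowest 1.27-fold for Trem2, 1.47-fold for Tyrobp, 1.48-fold for Pros1, 1.69-fold for Cd33, 1.96-fold for Mertk, 4.09-fold for Gas6 and 6.63-fold for Msr1. In bulk samples such as these, fewer cells that express a gene and less RNA per cell cannot be told apart.

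**Figure D1:**
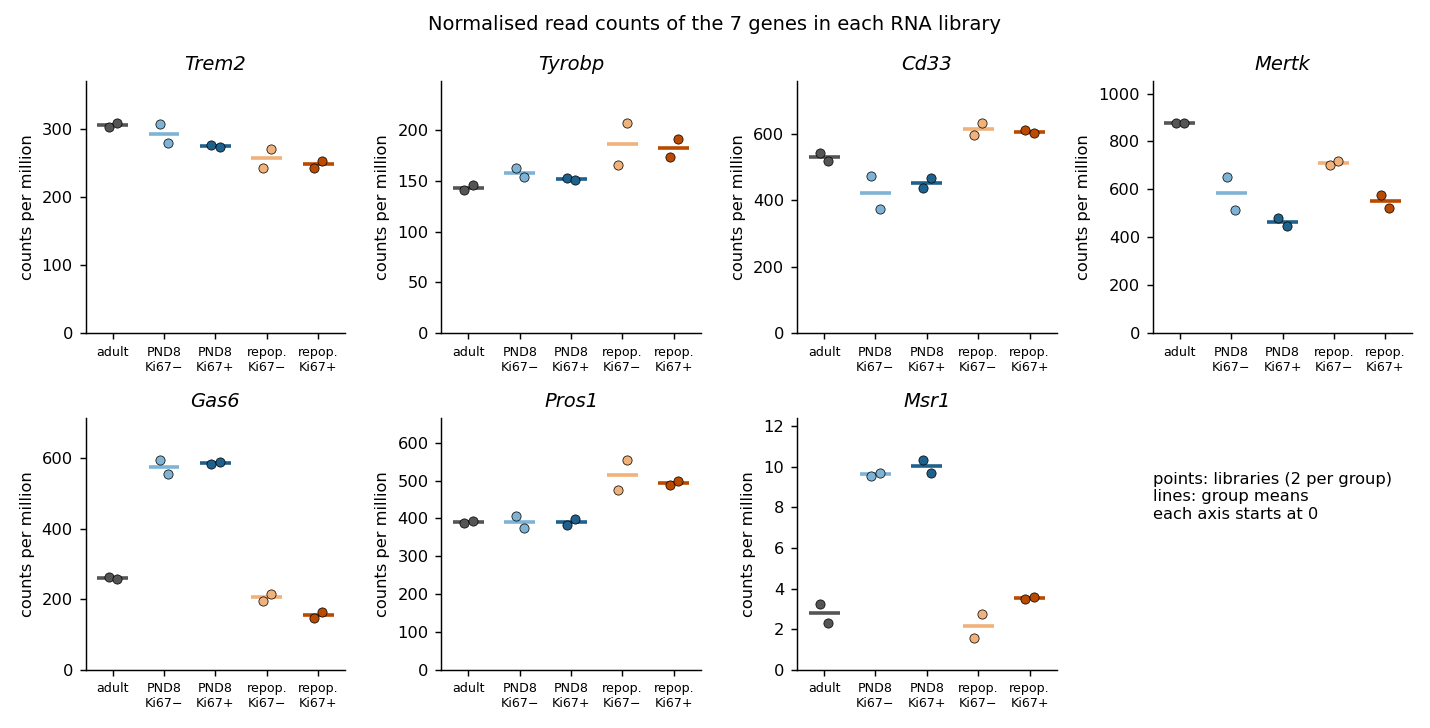
Level of each of the 7 genes in counts-per-million (vertical axis, from 0) in the 5 RNA groups (horizontal axis); points are libraries and lines are means of 2 libraries. Trem2 stays between 243 and 309 CPM, whereas Gas6 spans 146 to 596 CPM.

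Trem2 lies at chr17:48346401-48352276 on the plus strand of mm10, the build of the count table, as are the positions below. Its level was 303 and 309 CPM in adult, 308 and 279 in PND8 Ki67-negative, 276 and 273 in PND8 Ki67-positive, 243 and 271 in Ki67-negative repopulating and 243 and 253 CPM in Ki67-positive repopulating cells. The 4 repopulation libraries were the lowest and all lay under the 2 adult ones, while PND8 Ki67-negative replicate 1 overlapped adult. Against adult, Trem2 fell by 0.30 on the log2 scale in Ki67-positive repopulating cells (SE 0.08, 0.812-fold, adjusted p = 0.0104 from the quasi-likelihood test of edgeR, adjusted by Benjamini-Hochberg) and by 0.25 in Ki67-negative ones (SE 0.08, adjusted p = 0.0294). These small differences depended on single libraries: without adult replicate 1 the adjusted p was 0.0505 and 0.104, without adult replicate 2 it was 0.0708 and 0.144, and without replicate 1 of the repopulating group it was 0.0592 and 0.206. At PND8 the differences from adult were -0.15 and -0.06 for Ki67-positive and Ki67-negative cells and missed the threshold (adjusted p = 0.146 and 0.578). In an edgeR fit of only the groups compared, the Ki67-positive difference was called (-0.14, adjusted p = 0.0334).

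Tyrobp (chr7:30413782-30417579, plus strand) encodes the DAP12 adaptor. It was at 141 and 146 CPM in adult, 163 and 153 in PND8 Ki67-negative, 153 and 151 in PND8 Ki67-positive, 166 and 207 in Ki67-negative repopulating and 173 and 191 CPM in Ki67-positive repopulating cells. All 4 repopulation libraries were above every other library, so the adaptor and its receptor differed from adult in opposite directions. The rise over adult was 0.35 (SE 0.10, 1.27-fold, adjusted p = 0.0149) in Ki67-positive and 0.38 (SE 0.10, 1.30-fold, adjusted p = 0.0109) in Ki67-negative repopulating cells. The call ended without adult replicate 1 in both (adjusted p = 0.0986 and 0.0820), without adult replicate 2 in the Ki67-positive comparison (0.0565), and without replicate 2 of the repopulating group (0.121 and 0.152). In Ki67-negative cells leaving out replicate 2 also took the difference from 0.38 to 0.21, and in that library genes with over 2 tags per exon base were 0.26 higher on the log2 scale than in replicate 1, against 0.00 for all genes tested.

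Cd33 (chr7:43527456-43533171, minus strand), the sialic acid-binding receptor, was at 543 and 517 CPM in adult and at 596, 633, 612 and 602 CPM in the 4 repopulation libraries. At PND8 it was at 472 and 374 CPM in Ki67-negative and 437 and 468 CPM in Ki67-positive cells, below adult in all 4. Only the fall in PND8 Ki67-negative cells passed the test against adult (-0.33, SE 0.10, adjusted p = 0.0188), and it missed the threshold without either adult library (0.121 and 0.0594) and without PND8 Ki67-negative replicate 2 (-0.19, 0.0671). Between repopulation and PND8, Cd33 was higher by 0.54 (SE 0.10, 1.45-fold, adjusted p = 0.00121) in Ki67-negative cells, a call kept when any 1 library was left out. In Ki67-positive cells it was higher by 0.42 (SE 0.10, adjusted p = 0.00695), which missed the threshold without replicate 1 of PND8 (0.0951) or of repopulation (0.0625).

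Mertk (chr2:128698915-128803007, plus strand), the receptor for the bridging ligands, was highest in adult, at 877 CPM in both libraries. Its level was 654 and 513 CPM in PND8 Ki67-negative, 480 and 448 in PND8 Ki67-positive, 701 and 718 in Ki67-negative repopulating and 577 and 524 CPM in Ki67-positive repopulating cells. All 8 libraries lay below adult, and in both settings the Ki67-positive libraries lay below the Ki67-negative ones. Mertk fell by 0.92 at PND8 in Ki67-positive cells (SE 0.11, 0.529-fold, adjusted p = 1.15e-05) and by 0.59 in Ki67-negative cells (SE 0.11, 0.665-fold, adjusted p = 0.000557). In Ki67-positive repopulating cells it fell by 0.67 (SE 0.11, 0.628-fold, adjusted p = 0.000193). These 3 calls were kept when any 1 library was left out, with values between -0.96 and -0.44. The fall of 0.31 in Ki67-negative repopulating cells (SE 0.11, adjusted p = 0.0344) missed the threshold whichever 1 of the 4 libraries was left out (adjusted p between 0.0967 and 0.133), and with the size factors of DESeq2 in edgeR (-0.29, 0.0516).

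Gas6 (chr8:13465374-13494535, minus strand) encodes a bridging ligand of MERTK. It was at 263 and 256 CPM in adult, 596 and 556 in PND8 Ki67-negative and 583 and 589 CPM in PND8 Ki67-positive cells. It was at 195 and 215 CPM in Ki67-negative and 146 and 162 CPM in Ki67-positive repopulating cells. The PND8 libraries were all above adult and the repopulation libraries all below, with no overlap between PND8, adult and repopulation. Against adult, Gas6 rose by 1.18 (SE 0.09, 2.26-fold, adjusted p = 1.49e-07) in Ki67-positive and by 1.15 (SE 0.09, 2.22-fold, adjusted p = 2.47e-07) in Ki67-negative PND8 cells, and it fell by 0.75 (SE 0.09, 0.594-fold, adjusted p = 1.41e-05) in Ki67-positive repopulating cells. The fall of 0.34 in Ki67-negative repopulating cells (SE 0.09, adjusted p = 0.00736) missed the threshold without adult replicate 1 (0.0622) or without Ki67-negative repopulation replicate 1 (0.0689). The direct difference between repopulation and PND8 was -1.93 in Ki67-positive cells (SE 0.09, 0.263-fold, adjusted p = 3.96e-09) and -1.49 in Ki67-negative cells (SE 0.09, 0.356-fold, adjusted p = 3.11e-08). Among libraries that share a code in the file headers it was -2.01 and -1.51.

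The summed level of the border macrophage markers was also higher at PND8 and lower in repopulation, beside the values of Gas6, and the 8 markers did not all share that order. Mrc1 was at 49.7 and 52.7 CPM in adult, between 520 and 834 CPM in the 4 PND8 libraries and between 25.6 and 41.3 CPM in the 4 repopulation libraries. Lyve1 and Cd163, which define those cells more closely, were at 2.08 and 2.81 and at 4.05 and 8.31 CPM in adult. In PND8 Ki67-negative cells they were at 12.7 and 27.1 and at 6.56 and 9.08 CPM, and in PND8 Ki67-positive cells at 3.74 and 5.78 and at 2.31 and 3.47 CPM. Pf4 and Cbr2, like Mrc1 and Lyve1, were above adult in all 4 PND8 libraries. F13a1, Ms4a7 and Clec10a were above adult in both PND8 Ki67-negative libraries and overlapped adult in the Ki67-positive ones. In repopulation Lyve1 was at 0 counts in all 4 libraries and Cd163 was at most 0.520 CPM. The part of these markers in the result was not tested.

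Pros1 (chr16:62854307-62929342, plus strand) encodes protein S, the other ligand. Its levels were 388 and 392 CPM in adult, 407 and 375 in PND8 Ki67-negative, 382 and 399 in PND8 Ki67-positive, 474 and 555 in Ki67-negative repopulating and 489 and 498 CPM in Ki67-positive repopulating cells. All 4 repopulation libraries were above the other 6, and PND8 overlapped adult. Pros1 rose over adult by 0.40 (SE 0.09, 1.32-fold, adjusted p = 0.00325) in Ki67-negative repopulating cells, a call kept when any 1 library was left out. In Ki67-positive repopulating cells it rose by 0.34 (SE 0.09, 1.26-fold, adjusted p = 0.00727), with an adjusted p of 0.0587 without adult replicate 1 and of 0.0505 without Ki67-positive replicate 2. At PND8 its difference from adult was 0.00 in both groups (adjusted p = 0.992 and 0.983). The summed astrocyte markers given above were also higher in all 4 repopulation libraries than in adult, beside the rises of Tyrobp and Pros1, and their part was not tested.

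The balance of the MERTK ligand transcripts therefore differed between settings, while the secreted proteins were not measured here. The ratio of Gas6 to Pros1 in TPM was 0.863 and 0.832 in the adult libraries, between 1.87 and 1.95 in the 4 PND8 libraries, 0.525 and 0.494 in Ki67-negative and 0.380 and 0.415 in Ki67-positive repopulating cells. Gas6 was thus the more abundant ligand transcript in all 4 PND8 libraries and Pros1 in the other 6, and the 4 ranges (adult, PND8, and each repopulation group) did not overlap.

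Msr1 (chr8:39603452-39642678, minus strand) was scarce, at 28 and 19 counts in the adult libraries, 77 and 106 in PND8 Ki67-negative, 94 and 84 in PND8 Ki67-positive, 15 and 18 in Ki67-negative repopulating and 30 and 25 counts in Ki67-positive repopulating cells. In CPM it was at 3.24 and 2.32 in adult, between 9.53 and 10.4 at PND8 and between 1.56 and 3.60 in repopulation. The PND8 libraries did not overlap any other, and adult and repopulation overlapped. Msr1 rose over adult by 1.85 (SE 0.32, 3.60-fold, adjusted p = 0.000323) in Ki67-positive and 1.79 (SE 0.32, 3.46-fold, adjusted p = 0.000487) in Ki67-negative PND8 cells. Between repopulation and PND8 it fell by 1.51 (SE 0.31, adjusted p = 0.00245) and 2.21 (SE 0.33, adjusted p = 0.000215) in Ki67-positive and Ki67-negative cells. Leaving out any 1 library kept all 4 calls, whereas limma on log2(TPM + 1) without a filter on low values gave adjusted p values between 0.0631 and 0.127 for them. The TPM table names a shorter transcript of Msr1 (1455 bases) than the count table (3632 bases), and the summed markers of border macrophages given above moved with Msr1 too; their part was not tested.

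Mertk and Gas6 were the members that passed the test in all 4 comparisons with adult, Mertk lower each time and Gas6 higher at PND8 and lower in repopulation. In PND8 Ki67-positive cells 2 of 7 rose (Gas6, Msr1) and 1 fell (Mertk), where 25.1% of all genes tested rose and 24.3% fell. In PND8 Ki67-negative cells 2 rose and 2 fell (Mertk, Cd33), where 25.4% rose and 21.4% fell. In Ki67-positive repopulating cells 2 rose (Tyrobp, Pros1) and 3 fell (Trem2, Mertk, Gas6), against a background of 23.9% and 21%. The Ki67-negative repopulating cells gave the same 5 calls in the same directions, against 21.5% and 17.6%. Since the comparisons with adult share its 2 libraries, their calls are not independent.
Set directly against PND8, 2 members were higher (Pros1, Cd33) and 2 lower (Gas6, Msr1) in repopulation. This held in Ki67-positive cells, where 16.7% of all genes were higher and 14.2% lower, and in Ki67-negative cells, where 18% were higher and 18.6% lower. The Pros1 difference in Ki67-positive cells (0.34, SE 0.09, adjusted p = 0.0112) missed the threshold whichever 1 of the 4 libraries was left out (0.0612 to 0.119). Calls also appeared when a library was left out of the Ki67-negative comparison: Mertk without PND8 Ki67-negative replicate 1 (0.47, adjusted p = 0.000779), Trem2 without its replicate 2 (-0.24, 0.0391) and Tyrobp without Ki67-negative repopulation replicate 1 (0.39, 0.0161). Other settings added calls too. Mertk was higher in Ki67-negative repopulating than PND8 cells by DESeq2 (0.30, adjusted p = 0.0233). Trem2 was lower in repopulation in Ki67-positive and Ki67-negative cells with library sizes only (-0.21 and -0.28, adjusted p = 0.0331 and 0.00685) and by limma on log2(TPM + 1) (-0.21 and -0.22, adjusted p = 0.0366 and 0.0224). Nothing particular to the members is read from shares of 7 genes.

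**Figure D2:**
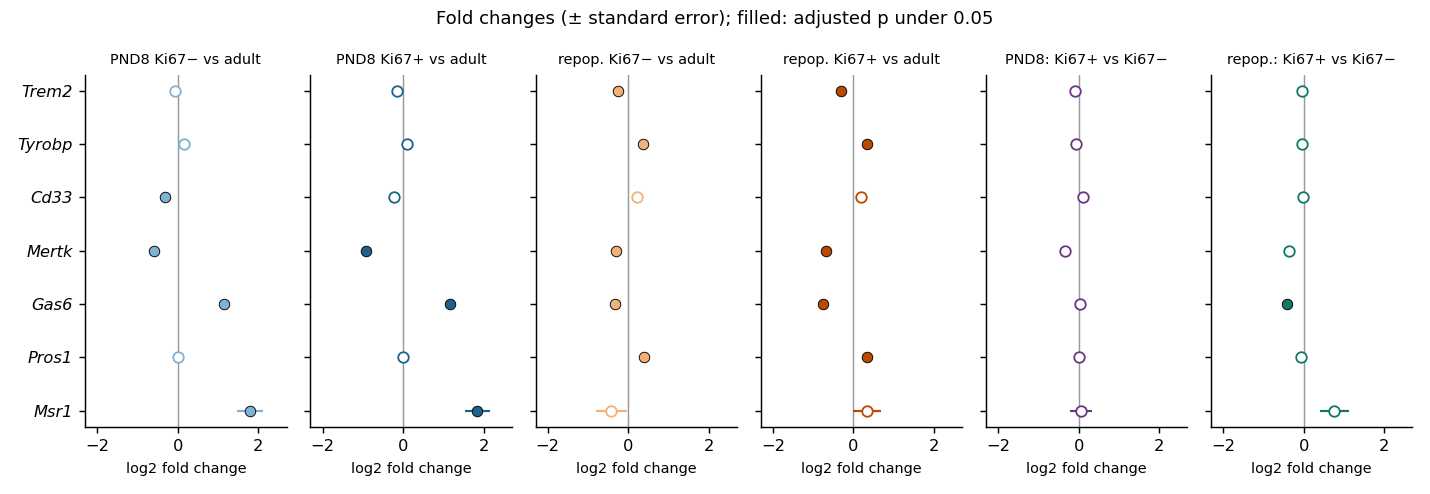
Log2 fold change of each gene in 6 comparisons (panels), with bars of 1 standard error; filled points passed an adjusted p of 0.05 in edgeR. Gas6 lies at 1.18 and 1.15 at PND8 against adult and at -0.75 and -0.34 in repopulation against adult.

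Few of these genes differed by cycling status. Between Ki67-positive and Ki67-negative cells at PND8, 0 of 7 members were called by edgeR, where 2.75% of all genes tested were higher and 3.15% lower. Of the 7, 1 member, Mertk, had an unadjusted p under 0.05 (0.0081), and DESeq2 called 0. In repopulation 1 member fell, Gas6, where 1.87% of all genes were higher and 0.867% lower. Gas6 was lower in Ki67-positive cells by 0.41 (SE 0.09, 0.751-fold, adjusted p = 0.0212), and the 2 within-code differences were -0.42 and -0.41. With any 1 of the 4 libraries left out the difference stayed between -0.49 and -0.34 but missed the threshold (adjusted p from 0.0591 to 0.141).
Mertk showed differences of like size in both settings without passing the threshold, -0.33 at PND8 (SE 0.11, adjusted p = 0.0903) and -0.37 in repopulation (SE 0.11, adjusted p = 0.0933). It was lower in the Ki67-positive library of each of the 4 same-code pairs, by 0.45 and 0.20 at PND8 and by 0.28 and 0.45 in repopulation. Without PND8 Ki67-negative replicate 2 the PND8 difference was -0.47 (adjusted p = 0.00312). By DESeq2 the repopulation difference was called (-0.38, adjusted p = 0.0247). For Trem2, Tyrobp, Pros1 and Cd33 the fitted Ki67 differences lay between -0.09 and 0.10 in both settings; without PND8 Ki67-negative replicate 1 that of Cd33 at PND8 was 0.28 (adjusted p = 0.0492). The difference between the Ki67 effects of the 2 settings was called for no member, and for 0% of all genes; for Gas6 it was -0.44 (SE 0.12, unadjusted p = 0.00297, adjusted p = 0.960). By edgeR 613 of the 12230 genes had an unadjusted p under 0.05 in that test, and DESeq2 called 3.

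Across the 10 libraries the members did not move as 1 unit. Pearson correlations of log2 CPM, which describe only these libraries and mostly the 3 settings they come from, were highest for Tyrobp and Pros1 (r = 0.925), Gas6 and Msr1 (r = 0.869) and Pros1 and Cd33 (r = 0.843). Gas6 ran against Cd33 (r = -0.889) and Pros1 (r = -0.744), and Trem2 against its adaptor Tyrobp (r = -0.550). Of all tested genes, those whose pattern was most like each member's were Nt5dc1 (r = 0.980) and Ifrd1 for Trem2, Ly86 (r = 0.981) and Grn for Tyrobp, Ralgps1 (r = 0.993) and Zfp273 for Mertk, and Rasl10b (r = 0.989) and Snx6 for Gas6. For Pros1 they were Kctd17 (r = 0.992) and Adam15, for Cd33 Sgk3 (r = 0.992) and Acsl4, and for Msr1 Vac14 (r = 0.981) and Rnf7.

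Another 72 genes of the same pathways were followed in 7 lists, 63 of them tested. The lists were TREM2-DAP12 signalling, the TREM family, receptors and ligands for apoptotic cells, scavenger receptors, Siglecs and do-not-eat-me receptors, Fc receptors and the engulfment machinery. At PND8, 15 rose and 21 fell against adult in Ki67-positive cells and 15 rose and 19 fell in Ki67-negative cells, where 25.1% of all genes rose and 24.3% fell and 25.4% rose and 21.4% fell. The medians were -0.05 and -0.01, against 0.00 and 0.03 for all genes tested. In repopulation 19 rose and 12 fell in Ki67-positive cells and 22 rose and 10 fell in Ki67-negative cells, against 23.9% and 21% and against 21.5% and 17.6% of all genes. The medians there were 0.09 and 0.11 against -0.01 and -0.01. Of 15 TREM2-DAP12 signalling genes, 1 rose and 5 fell in each PND8 group, and 3 rose and 0 fell in Ki67-positive and 4 rose and 1 fell in Ki67-negative repopulating cells, beside those same shares of all genes. Of 7 Siglecs and do-not-eat-me receptors tested, 5 were higher and 0 lower in repopulation than at PND8, in Ki67-positive and in Ki67-negative cells. Of all genes, 16.7% were higher and 14.2% lower in Ki67-positive cells and 18% higher and 18.6% lower in Ki67-negative ones. Nothing particular to a list is read from these counts.

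The largest changes in these lists were in repopulation, and Cd36 led them. Cd36, a scavenger receptor for oxidised lipoproteins and fatty acids, was at 2.20 and 1.22 CPM in adult, between 3.86 and 12.9 CPM at PND8 and at 178, 264, 233 and 312 CPM in the 4 repopulation libraries. It rose over adult by 7.31 (SE 0.45, adjusted p = 3.72e-08) in Ki67-positive and 7.0 (SE 0.46, adjusted p = 9.76e-08) in Ki67-negative cells. Axl, the TAM receptor that like MERTK binds GAS6, was at 37.0 and 41.9 CPM in adult and between 392 and 561 CPM in repopulation, and it rose by 3.45 (SE 0.24, adjusted p = 1.01e-07) in the Ki67-positive group. Axl and Mertk, receptors of 1 family, thus differed from adult in opposite directions in the same libraries. Cd300lf, a receptor for phosphatidylserine, rose by 3.85 (SE 0.25, adjusted p = 8.70e-08) in Ki67-negative repopulating cells, from 3.59 and 2.81 CPM to 43.4 and 49.4 CPM.
Other members of the lists fell in some of the comparisons. Cd163 had the largest fall against adult in repopulation, from low levels of 4.05 and 8.31 CPM in adult. By edgeR its log2 difference was -4.59 in Ki67-positive (SE 0.74, adjusted p = 0.000232) and -4.34 in Ki67-negative cells (SE 0.71, adjusted p = 0.000347). Clec7a, the beta-glucan receptor Dectin-1, fell by 1.93 (SE 0.38, adjusted p = 0.00115) in Ki67-positive repopulating cells, from 33.9 and 28.0 CPM to 8.21 and 8.06 CPM. Cxcl16, a membrane chemokine that also binds oxidised lipoproteins, fell by 0.90 and 1.28 in Ki67-positive and Ki67-negative PND8 cells (adjusted p = 0.000464 and 3.67e-05) and was between 119 and 139 CPM in repopulation against 54.9 and 66.4 in adult. Colec12, a scavenger receptor with a lectin domain, was at 0.810 and 1.10 CPM in adult and between 5.84 and 14.6 CPM at PND8, and it was under the level of 3 counts in the repopulation libraries.
Ki67 status gave few calls here too, 0 higher and 3 lower of 63 at PND8 and 0 higher and 2 lower in repopulation, where 2.75% and 3.15% and 1.87% and 0.867% of all genes were higher and lower. Siglecf fell by 0.60 (SE 0.12, adjusted p = 0.00702) in PND8 Ki67-positive cells, a call that ended without Ki67-positive replicate 2 (-0.44, 0.167) and by limma on log2(TPM + 1) without a filter (0.137). Colec12 fell there by 1.12 (SE 0.28, adjusted p = 0.0347), and missed the threshold without PND8 Ki67-negative replicate 2 or either Ki67-positive library (0.117 to 0.204) and by DESeq2 (0.118). Siglec1 fell by 0.83 (SE 0.14, adjusted p = 0.00430) in Ki67-positive repopulating cells, a call that ended by limma on log2(TPM + 0.1) (0.0583) and on log2(TPM + 1) without a filter (0.135). Abca1, the cholesterol exporter, fell there by 0.66 (SE 0.16, adjusted p = 0.0494), and leaving out replicate 1 of the Ki67-negative group gave -0.44 (adjusted p = 0.458) and replicate 2 of the Ki67-positive group -0.41 (0.492); by DESeq2 the adjusted p was 0.0884.

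**Figure D3:**
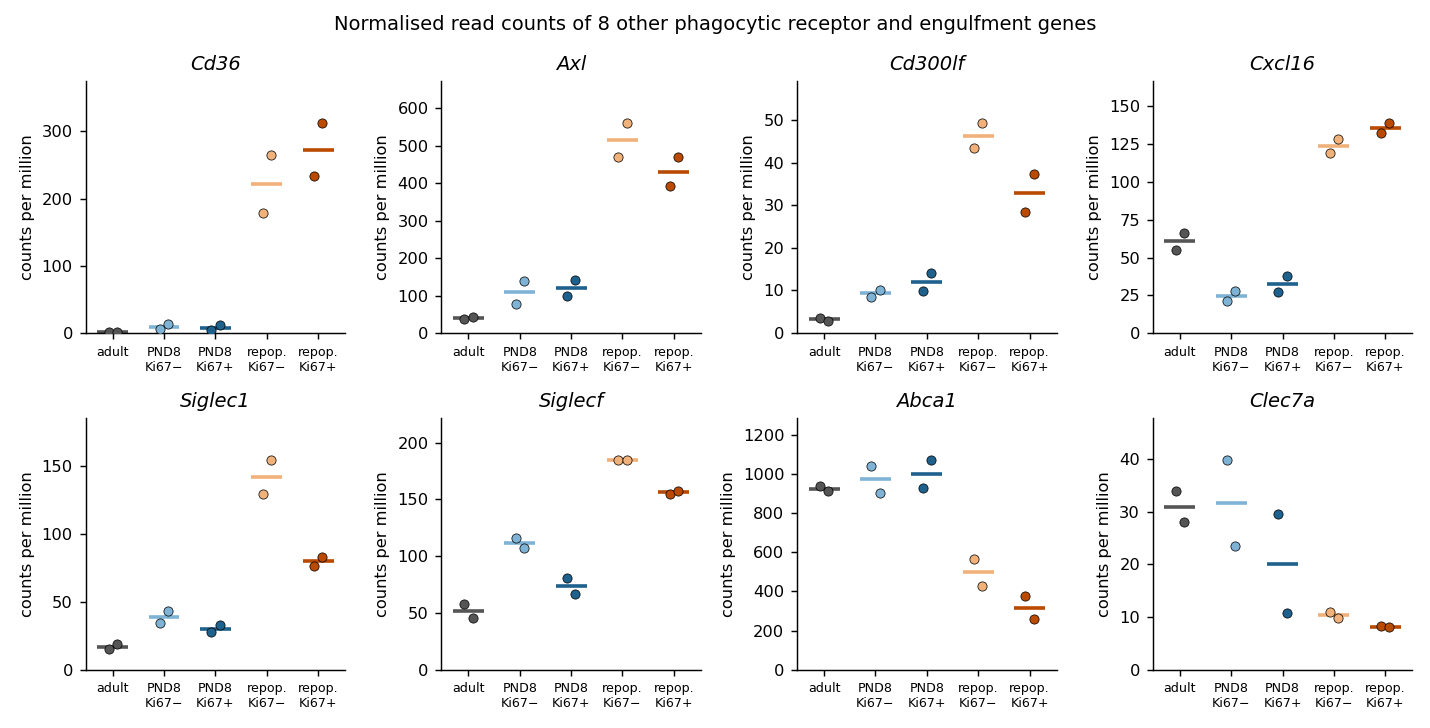
Level in counts-per-million (vertical axes, from 0) of 8 further phagocytic genes in the 5 RNA groups; points are libraries and lines are means of 2 libraries. Cd36 is between 178 and 312 CPM in the 4 repopulation libraries and at most 12.9 CPM in the other 6.

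H3K27ac was found at most member start sites in every group. Within 1 kb of the start, 6 of 7 members had a region in both libraries of the adult, PND8 Ki67-negative, cuprizone Ki67-negative and repopulation groups, and all 7 did in the PND8 and cuprizone Ki67-positive groups. The missing member was Msr1 each time. Among all 20999 start sites 41.3 to 51.1% had a region within 1 kb, and 48.3 to 58.6% within 10 kb. The authors called regions in each library on its own, so the covered length moves with how much was called in that library.

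Trem2 had a region over its start in all 12 libraries, with a signal (the authors' tag count, normalised to a fixed library total) of 439 and 892 in adult, 787 and 692 in PND8 Ki67-negative and 877 and 944 in PND8 Ki67-positive cells. It was 1077 and 1181 in cuprizone Ki67-negative, 1042 and 1238 in cuprizone Ki67-positive and 728 and 834 in repopulating cells. Within its own list this region ranked in the top 8.85% and 4.82% in the adult libraries and in the top 1.02 to 3.57% in the other 10, and ranks from lists of different length show no change. The length covered within 10 kb of the start was 3003 and 2730 bp in adult, 2931 and 4517 in PND8 Ki67-negative, 3168 and 3290 in PND8 Ki67-positive, 4255 and 5330 in cuprizone Ki67-negative, 6296 and 6425 in cuprizone Ki67-positive and 4701 and 3988 bp in repopulating cells. Both cuprizone Ki67-positive libraries had the longest cover of the 12. Part of that length was a separate region 7 to 10 kb downstream, past the end of the gene, which was chosen after its values were seen. It was called in 4 of 4 cuprizone libraries, with sizes of 1720 to 2698 bp and signals of 104.9 to 160.2, and in 2 of 2 repopulation libraries, with 1019 and 1021 bp and signals of 29.9 and 37.6. At PND8 it was called in 1 of 4 libraries (501 bp, signal 15.6), and in adult 1 of 2 had a region of 501 bp there (signal 11.4). No test was made of it, since the signals come from regions called separately.

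Gas6 carried its mark in 2 places, at the start and upstream of it between about 8.3 and 11.1 kb. At the start the signal was 14.9 and 119.0 in adult, 340.3 and 355.0 in PND8 Ki67-negative, 329.3 and 404.6 in PND8 Ki67-positive, 97.9 and 201.9 in cuprizone Ki67-negative, 181.8 and 342.2 in cuprizone Ki67-positive and 52.6 and 109.6 in repopulating cells. The PND8 values were above those of adult and repopulation, and cuprizone Ki67-positive replicate 2 overlapped PND8. Within its own list the start region ranked in the top 11.1 to 14.8% in the 4 PND8 libraries and in the top 49.6 to 94.0% in the adult and repopulation libraries. The upstream region was called in all 12 libraries, with signals of 168.2 and 358.9 in adult, 366.0 to 429.1 at PND8, 313.8 to 430.8 after cuprizone and 146.4 and 197.4 in repopulation. The order of settings at the start site, PND8 above adult and repopulation, was that of Gas6 RNA, while the 2 adult libraries, at 14.9 and 119.0, lay on either side of both repopulation values.

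**Figure D4:**
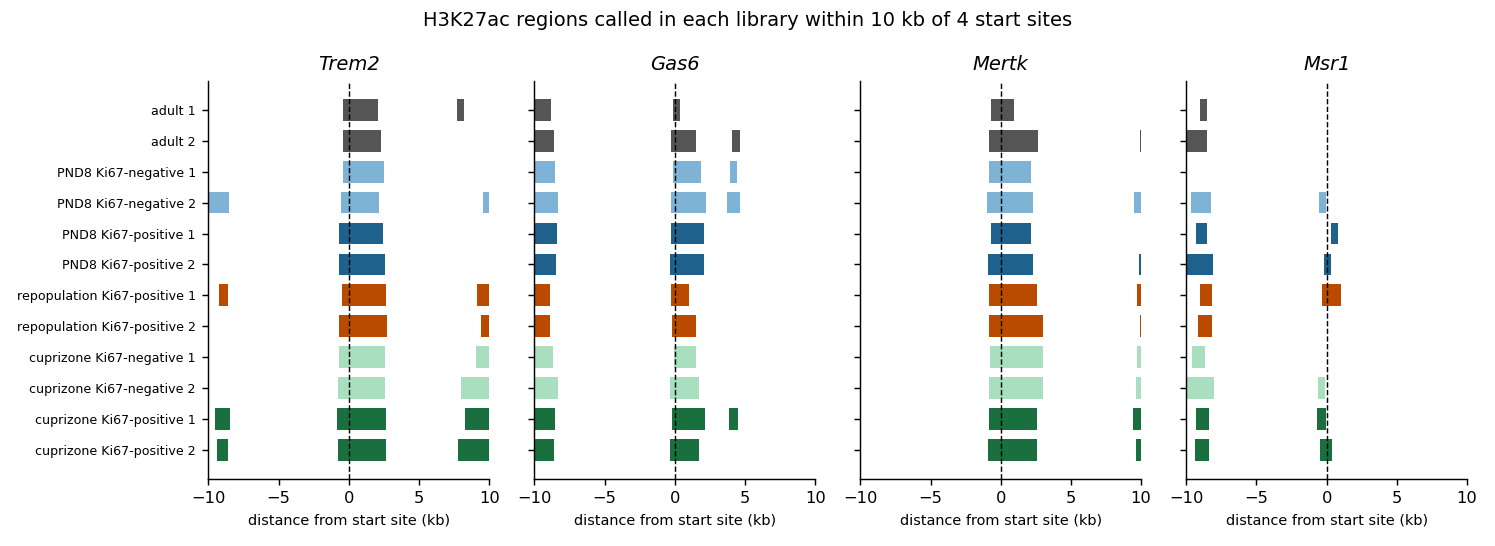
H3K27ac regions (bars) in the 12 libraries within 10 kb of the start sites of Trem2, Gas6, Mertk and Msr1; the horizontal axis is the distance from the start in kb along the gene's strand. A region 7 to 10 kb downstream of Trem2 is present in all 4 cuprizone libraries.

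Mertk had a start region with signals of 139.4 and 701.1 in adult, 435.6 to 549.4 at PND8, 630.8 to 836.2 after cuprizone and 513.3 and 712.6 in repopulation. The 2 adult values lay on either side of all 4 PND8 ones, with the sparse adult replicate 1 below every other library. Among the libraries that share a header code, adult replicate 2 (701.1) was above PND8 Ki67-negative replicate 2 (456.6), PND8 Ki67-positive replicate 2 (549.4) and repopulation replicate 1 (513.3). The other repopulation library, at 712.6, was above both adult ones. The covered length was 1630 and 3580 bp in adult, 2852 to 3829 bp at PND8, 3880 to 4166 bp after cuprizone and 3709 and 3867 bp in repopulation. Cd33, Tyrobp and Pros1 were covered in all 12 libraries, with start signals of 577.6 to 1233.4 for Cd33, 737.6 to 1355.1 for Tyrobp and 401.4 to 869.1 for Pros1. Tyrobp had the longest cover of the members, 7062 to 7965 bp, but its window also holds the start sites of Hcst (6072 bp away) and Nfkbid (9493 bp away), and that of Pros1 holds the start of Arl13b (7267 bp away). Msr1 had weak regions, with a start signal of 9.66 to 29.0 in the 7 libraries where one was called, and the 2 cuprizone Ki67-positive libraries had 26.9 and 29.0. A separate region lay upstream, 8509 and 8520 bp from the start in adult. It was called in every library but PND8 Ki67-negative replicate 1, with signals from 18.8 in adult replicate 1 to 84.3 in cuprizone Ki67-negative replicate 2.

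Covered lengths within 10 kb were compared by whether the 2 libraries of a group lay wholly above or below those of another. In PND8 Ki67-negative against adult cells, 2 members were longer (Gas6, Tyrobp) and 1 shorter (Pros1), where 40.8% of 12893 genes with any region were longer and 6.85% shorter. PND8 Ki67-positive cells had 3 longer members (Gas6, Trem2, Tyrobp) and 0 shorter, against 50.7% and 5.25%. Cuprizone Ki67-negative cells had 3 longer (Mertk, Trem2, Tyrobp) and 0 shorter, against 29.6% and 3.12%. Cuprizone Ki67-positive cells had 4 longer (Mertk, Msr1, Trem2, Tyrobp) and 1 shorter (Pros1), against 37.8% and 4.1%. Repopulating cells had 3 longer (Mertk, Trem2, Tyrobp) and 0 shorter, against 54.0% and 3.23%. Longer cover than adult was thus common across the genome, and the members' counts were near that background.
These counts leaned on single libraries. Without adult replicate 2, which leaves only the sparse adult library, more members were longer in every group compared with adult. Without adult replicate 1, more were shorter in every such group. Leaving out 1 library of the other group changed some counts too. Groups overlap less easily with 1 library on a side, and the share of all genes was not computed there. The counts with a library left out are therefore not given. For Trem2 the shorter of the 2 adult values, 2730 bp, was that of adult replicate 2. Its start region was 2502 bp in adult replicate 1 and 2730 bp in adult replicate 2. Adult replicate 1 also had a separate region of 501 bp (signal 11.4). The part of the sparse library in the Trem2 lengths was not tested. Libraries that share a header code with adult replicate 2 (2730 bp) gave 4517 bp in PND8 Ki67-negative, 3290 bp in PND8 Ki67-positive and 4701 bp in repopulating cells.
By Ki67 status, 2 members were longer in PND8 Ki67-positive than Ki67-negative cells (Pros1, Tyrobp) and 0 shorter, where 26.5% of genes were longer and 7.9% shorter. After cuprizone 1 was longer in Ki67-positive cells (Trem2) and 3 were shorter (Cd33, Mertk, Pros1), where 14.9% were longer and 9.5% shorter. Leaving out single libraries changed these counts as well, and the share of all genes was not computed there either.

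**Figure D5:**
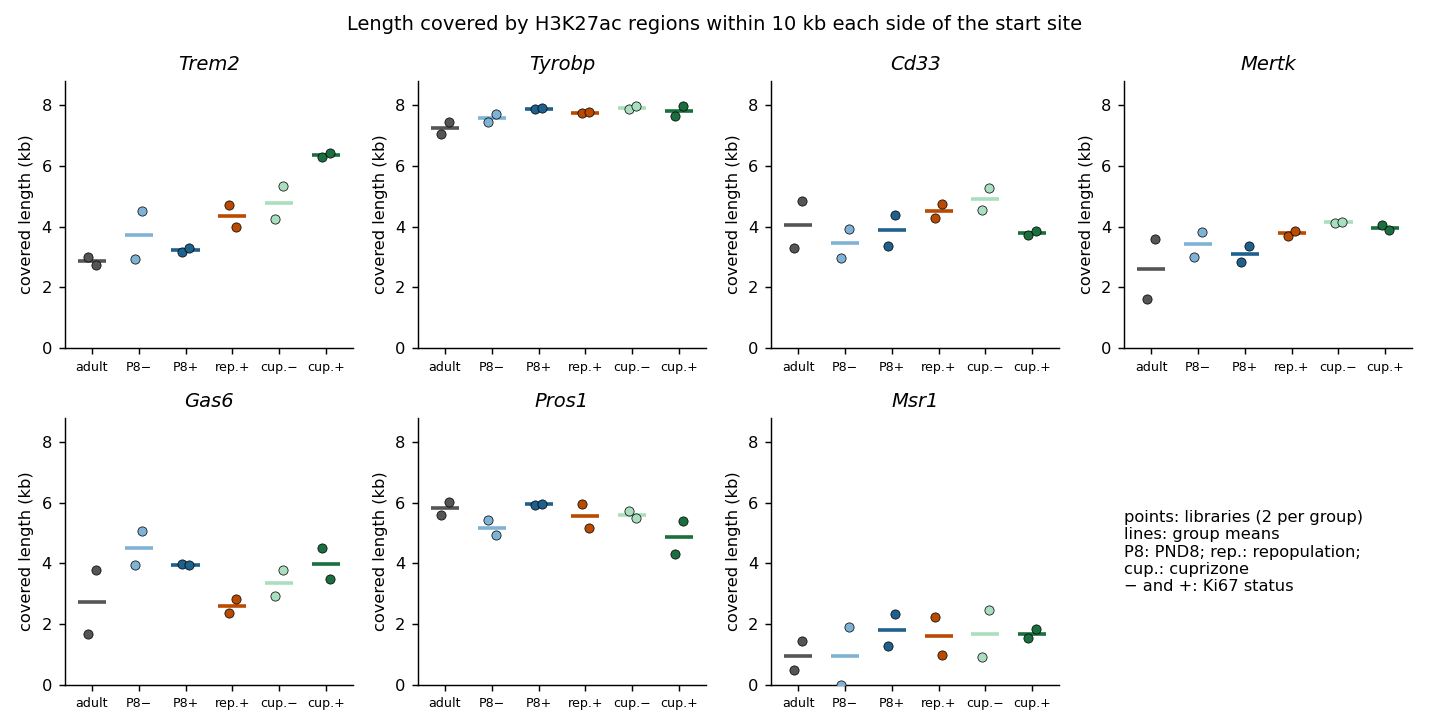
Length covered by H3K27ac regions within 10 kb of each start site in kb (vertical axis, from 0) in 6 groups; points are the 2 libraries of a group. Trem2 is covered over 6296 and 6425 bp in cuprizone Ki67-positive cells against 3003 and 2730 bp in adult cells.

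Marks of promoters and transcription were at hand for fewer groups. The H3K4me3 and Rpb2 libraries came from wild-type mice. H3K4me3, a promoter mark, had a peak within 1 kb of the start of 6 members in both adult libraries (75 days). It was strongest at Mertk, with signals of 2037.5 and 1939.6, which put that peak in the top 0.946% and 1.19% of its list. Rpb2, a subunit of RNA polymerase II, had a peak at 5 members in both adult libraries (60 and 65 days) and at 6 in the PND8 Ki67-positive library. At Trem2 the adult peaks lay 988 to 1244 and 947 to 1173 bp downstream of the start and reached into the window of 1 kb by only 13 and 54 bp, with no adult peak over the start itself. The PND8 library had a Trem2 peak there as well, 1009 to 1199 bp downstream (signal 27.6), and 1 over the start (30.6). The member added at PND8 was Gas6, which had no Rpb2 peak in adult replicate 1, a signal of 12.5 in adult replicate 2 and 29.5 at PND8. The PND8 list was the larger, with 31602 Rpb2 peaks against 14550 and 10544 in adult replicates 1 and 2. The part of that in the added peaks at Gas6 and Trem2 was not tested. At Tyrobp the signals were 296.2 and 165.3 in adult and 113.0 at PND8, and at Mertk 169.4 and 150.1 in adult and 150.2 at PND8. ATAC-seq, with 1 library each of adult (80 days), PND8 Ki67-positive and Ki67-positive repopulating cells (75 days), gave peaks at the same 6 members in all 3. The adult library was from wild-type mice and the PND8 and repopulation ones from Ki67-rfp mice, so genotype differed along with setting. The repopulating cells followed PLX5622 from day 55 for 17 days and 3 days of recovery. For Trem2 the strongest ATAC-seq signal near the start was not at the start itself, where it was 37.4 in adult, 29.8 at PND8 and 23.3 in repopulation, but inside the gene between 1033 and 1151 bp downstream, where it was 140.8, 74.6 and 104.8. Msr1 had none of these peaks within 1 kb of its start in any library. Further upstream, within 10 kb, it had an ATAC-seq peak in all 3, with signals of 73.4 in adult, 31.2 at PND8 and 50.1 in repopulation. An Rpb2 peak was called there at PND8 (signal 7.46) and not in adult. Among all start sites, 36.0% and 30.6% had an Rpb2 peak within 1 kb in adult replicates 1 and 2, against 48.4% in the PND8 library. An H3K4me3 peak was at 60.0 to 60.7% of them and an ATAC-seq peak at 56.0 to 60.8%.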

How the data were processed

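The series held 46 samples, of which 10 RNA libraries and 20 peak lists were used; the 16 inputs entered only through the authors' peak calls. The authors made the deposited count and TPM tables with HOMER over exons of mm10 transcripts, per the file headers, with 1 transcript per gene and at most 3 tags per position in the counts; the strand setting of the counting is not given in the sources used here. The submitters' processing notes name STAR 2.7.0f, Bowtie2 2.3.4.1, HOMER 4.11 and DESeq2. H3K27ac regions were called per library, per the file headers, from windows of 500 bp at a fold of 4 over input or more and a false discovery rate of 0.001. Their deposited signal is the authors' tag count normalised to a fixed total per library, and the deposited fold over input is a ratio of tags that the authors' caller gave per region and served here only as a stricter threshold of 8; column names in those lists are shifted against the values, so that column was identified as the quotient of the tag columns. Where the age in a title or header differs from the label's age field (1 repopulation H3K27ac and 1 adult Rpb2 library), the field was used. ATAC-seq lists name no build and were read as mm10, and Rpb2 peaks of PND8 were scored by the authors, per the file headers, against input chromatin of the H3K27ac assay.

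Counts were fitted with edgeR 4.0.16 (quasi-likelihood, TMM, filterByExpr by group, all 10 libraries in 1 fit) in R 4.3.3, which left 12230 genes, and p-values were adjusted over all of them by Benjamini-Hochberg with a threshold of 0.05. The common biological coefficient of variation was 0.0957. CPM used TMM-scaled library sizes. Alternatives used limma 3.58.1 on log2(TPM + 1) or log2(TPM + 0.1) and DESeq2 1.42.0. On simulated counts for 12230 genes in the comparison of PND8 Ki67-positive with adult cells, the code called 49 of 50 genes changed 2-fold up, 49 of 50 changed 2-fold down, all 100 changed 4-fold, and 9 others.

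The labels call the 2 libraries of a group independent biological replicates. The labels do not say that replicate numbers pair samples, so the fit had no block. All adult libraries share a code in the file headers that no other RNA library has, so code and group cannot be told apart there. Members and gene lists were chosen with earlier results of these data known; besides the members, the 2 largest rises and 2 largest falls among called list genes could be named per comparison.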

Additional observations from a re-analysis of the deposited data

Results flagged for a closer look

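The difference from adult was itself different between the settings for 4 members, by the edgeR contrast of repopulation with PND8, in which the adult libraries cancel. In Ki67-positive cells that difference was -1.93 on the log2 scale for Gas6, -1.51 for Msr1, 0.42 for Cd33 and 0.34 for Pros1. In Ki67-negative cells it was -1.49 for Gas6, -2.21 for Msr1, 0.54 for Cd33 and 0.40 for Pros1. Gas6 was the member whose change from adult passed the test in opposite directions in the settings, above adult at PND8 and below it in repopulation.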

How the results depend on the processing

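No RNA call of a member changed direction. Differences that were not called could change sign. With single libraries left out, that of Tyrobp by Ki67 in repopulation ran from -0.19 to 0.13. H3K27ac lengths against adult could also turn with the adult library used. In PND8 Ki67-positive cells Mertk was covered over 2852 and 3368 bp, above adult replicate 1 (1630 bp) and below adult replicate 2 (3580 bp). Of the 7 members, 0 were called by Ki67 status at PND8 and 1 in repopulation. With library sizes only, without a filter on low counts, with the replicate block or with the header code as a block these became 1 and 2, and 2 in repopulation by DESeq2, Mertk being the added gene. The count in repopulation was 0 in a fit of only the groups compared and by limma on log2(TPM + 1) without a filter. Against adult, PND8 Ki67-positive cells gave 5 calls in place of 3 in a fit of only the groups compared, Trem2 and Cd33 being the added genes. Against adult, limma without a filter gave 2 in place of 4 in PND8 Ki67-negative cells and 3 in place of 5 in Ki67-negative repopulating cells. That limma fit gave 2 in place of 4 in Ki67-positive repopulating against PND8 cells. Leaving out single libraries gave 0 to 1 calls by Ki67 at PND8 and 0 to 0 in repopulation, 2 to 4 in Ki67-positive and 1 to 3 in Ki67-negative repopulating cells against adult, and 2 to 3 in Ki67-positive repopulating against PND8 cells. Same-numbered libraries deviated together over 12230 genes with a correlation of 0.34 between the PND8 groups and 0.26 between the repopulation groups, and of -0.01 to 0.10 for other pairs of groups. With the replicate block 4 calls of members were added: Mertk by Ki67 at PND8 (adjusted p = 0.0491) and in repopulation (0.0388), Tyrobp in Ki67-positive (0.26, 0.0409) and Mertk in Ki67-negative (0.29, 0.0284) repopulating against PND8 cells. A fit of only the groups compared called Cd33 against adult in PND8 Ki67-positive (-0.22, 0.00257), Ki67-positive repopulating (0.20, 0.00690) and Ki67-negative repopulating cells (0.21, 0.0213) but not in PND8 Ki67-negative ones (-0.35, 0.0614). Without a filter on low counts, or with only the groups compared, Mertk (0.25 in both, 0.0198 and 0.0181) and Tyrobp (0.26 in both, 0.0428 and 0.0291) were called in Ki67-positive repopulating against PND8 cells.

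Counts over all genes moved too: the 721 genes called by Ki67 at PND8 ranged from 213 to 1627 over the alternatives and the 335 in repopulation from 86 to 1003. The difference of Ki67 effects gave 0 to 73, the highest without PND8 Ki67-negative replicate 1. Single libraries took the 4789 calls of Ki67-negative repopulating against adult cells to 3118, the 3778 of Ki67-positive repopulating against PND8 cells to 2292 and the 4473 of Ki67-negative ones to 2928. Counts of members with H3K27ac, Rpb2, H3K4me3 or ATAC-seq peaks at the start kept within 1.5 times under a stricter fold over input, a minimum of covered bases and single libraries left out. The cause of these shifts was not tested. Depth limits Msr1 most, with 15 to 106 counts a library, and groups of 2 limit every call.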
